A study of Sus scrofa with 13 samples.

Results

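The matrix metalloproteinases (MMPs) and the tissue inhibitors of metalloproteinases (TIMPs) were examined in pig arteriovenous fistulas, in the outflow vein, the segment that carries arterial flow after surgery for haemodialysis access. The set was fixed by name: MMP2, MMP3, MMP9, MMP11, MMP14, MMP19 and TIMP1 to TIMP4. Of these 10 genes, 9 had a protein-coding row under their own name among 20288 such rows, and no row was named TIMP2. RNA-seq libraries came from 5 vehicle animals, whose vein was given the polymer PLGA in hydrogel alone, and from 8 animals given the same carrier loaded with 1,25-dihydroxyvitamin D3 (called 1,25 NP). The comparison asked whether the loaded carrier changed transcript levels. Column names give a code, read here as the animal, and the sex, with 3 females in each group, 2 males in vehicle and 5 males in 1,25 NP. The strain, age, dose and time of harvest of these pigs were not used here, since the one treatment protocol in the labels describes mice.

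MMPs are zinc-dependent proteases that cut collagens, elastin, fibronectin and other matrix proteins, and most are secreted as inactive proenzymes whose propeptide must be removed. TIMPs bind the active site of MMPs and block it, so the balance of both sets how fast the matrix of a vessel wall turns over. In fistula veins the gelatinases MMP2 and MMP9 are known from work on outward remodelling and on intimal thickening.

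The identity of some rows was uncertain. The row that the file names MMP3 (ENSSSCG00000014985, chromosome 9, 33411065 to 33454000) is listed as MMP1 in a reference table of identifiers, and its interval overlaps both MMP1 and MMP3 in RefSeq, so its reads could come from the interstitial collagenase MMP1, from the stromelysin MMP3 or from both. It is called the MMP3 row here. An unnamed protein-coding row (ENSSSCG00000017164, chromosome 12, 3254493 to 3300835) overlaps the RefSeq interval of TIMP2 and also that of CEP295NL. It is given beside the 9 members and is not counted among them. TIMP1 overlaps the interval of the synapsin gene SYN1, TIMP3 that of SYN3 and TIMP4 that of SYN2. Without a stated strand setting shared reads cannot be told apart. These synapsins reached at most 0.757, 0.217 and 0.187 RPKM in any library. MMP14 overlaps the interval of the amino acid transporter SLC7A7, which reached 13.7 RPKM. How far the intervals overlap was not examined.

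Library totals, taken as reads on genes, were between 30261776 and 50271231, and levels are in RPKM, reads per kilobase of gene length scaled to that total. All 9 members lay above 0.5 RPKM in at least 5 libraries and entered the test. The MMP3 row did so in exactly 5, 1 of them vehicle and 4 of them 1,25 NP. Markers of the vessel wall were present, with 10 of 10 smooth muscle and 10 of 10 endothelial markers past the same filter and 0 of the 5 skeletal muscle markers in the table.

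Of the 6 measured MMP members, MMP2 and MMP14 had the highest transcript levels. MMP genes outside the set are given further on and are not part of the shares here. MMP2, gelatinase A, which cleaves denatured collagen and the collagen of basement membranes, had the highest median of the set at 312 RPKM over the 13 libraries, and 99.2% of the tested genes had a lower mean. MMP14, a membrane-anchored collagenase that also activates the MMP2 proenzyme, followed at a median of 150.2 RPKM and was below MMP2 in 13 of 13 libraries. MMP2 and MMP14 together made up 84.9% to 95.3% of the summed RPKM of the 6 measured MMP members in each library. TIMP1, a secreted inhibitor, had a median of 109 RPKM, the unnamed row at the TIMP2 locus 96.6 and TIMP3, an inhibitor held in the matrix, 85.5. Neighbours in this middle range changed places between libraries: MMP14 lay above TIMP1 in 6 of 13, TIMP1 above the unnamed row in 7 of 13 and the unnamed row above TIMP3 in 6 of 13.

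Below these stood MMP19, a secreted MMP that cleaves basement membrane proteins, at a median of 24.7 RPKM, and MMP11, stromelysin-3, at 7.85 RPKM. MMP19 was above MMP11 in 12 of 13 libraries. MMP9, gelatinase B, which leukocytes and osteoclasts make in quantity, had a median of 1.98 RPKM and TIMP4, an inhibitor best known from heart, 1.67 RPKM. MMP9 was above TIMP4 in 7 of 13 libraries, so their order was not settled. The MMP3 row was lowest, with a median of 0.0765 RPKM. TIMP1 spread 21.2-fold between its lowest and highest library and MMP9 88.1-fold, against 3.49-fold for the unnamed row and 3.68-fold for MMP19.

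**Figure D1:**
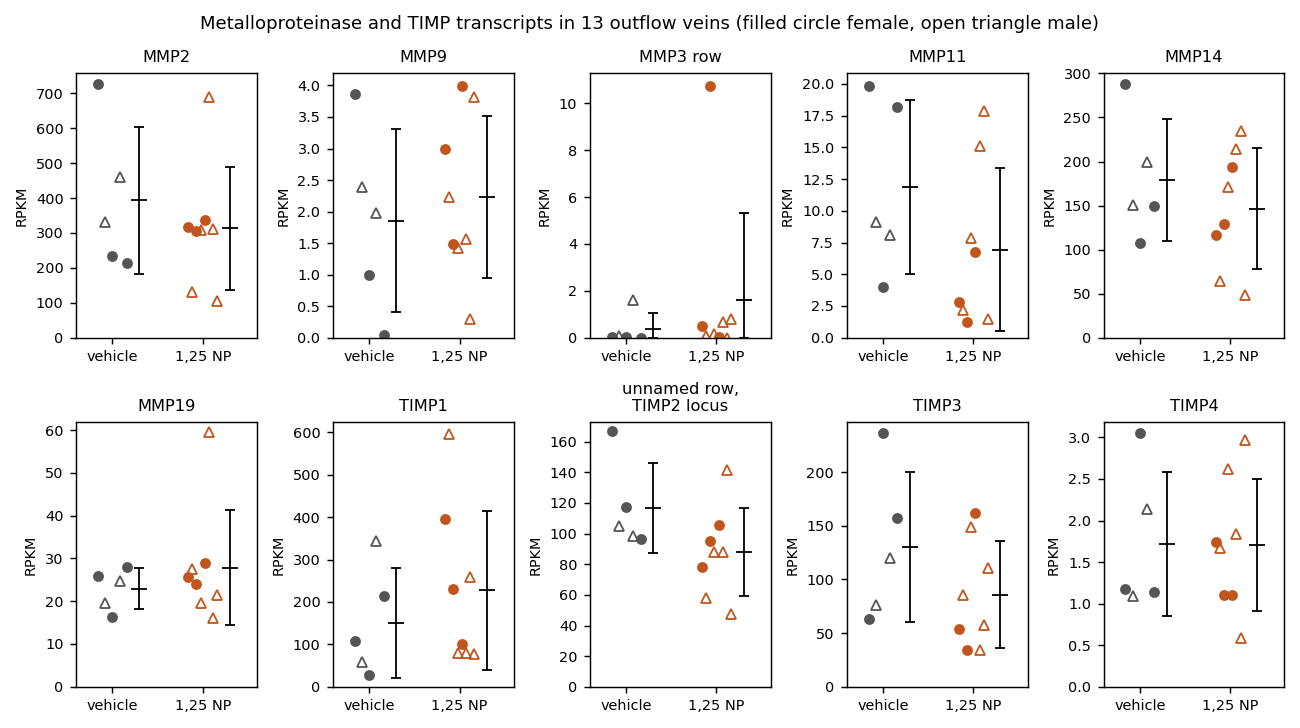
Each panel plots RPKM (vertical axis, linear from 0) of 1 gene in 5 vehicle and 8 1,25 NP libraries, with filled circles for females, open triangles for males, and a bar with whiskers for the group mean and SD (cut at 0). The groups overlap in every panel, and single libraries stand high for the MMP3 row (10.7 RPKM), MMP19 (59.6 RPKM) and TIMP1 (595.0 RPKM).

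None of the 9 members passed the test between 1,25 NP and vehicle veins. TIMP1, the MMP3 row, MMP9 and MMP19 had higher mean log2 levels in 1,25 NP veins and MMP11, TIMP3, MMP14, MMP2 and TIMP4 lower ones, with 0 of 9 past an adjusted p of 0.05 and 0 of 9 at an unadjusted p under 0.05 (limma, adjusted p from 0.795 to 0.985). Over all 14579 genes tested the share called was 0% after adjustment and 4.01% before it. In counts this was 0 called and 585 before adjustment with limma. With voom, run on whole reads recovered from the RPKM, the numbers were 0 and 629. The number before adjustment depended on the setting, from 345 without 1,25 NP library P32 to 2213 without P28 and 2378 with array weights, and was 966 without P23. The median log2 difference was -0.018 over the members and -0.071 over all genes tested. The groups overlapped for every member, and 0.096% of all genes tested had groups that did not overlap. In whole tissue, fewer cells of a type and less RNA per cell cannot be told apart, and standard errors of 0.28 to 0.64 on the log2 scale limit what could be seen.

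The gelatinases showed no difference beyond the spread between animals. MMP2 (ENSSSCG00000002829, chromosome 6, 30058594 to 30086982) was at 727, 331, 235, 462 and 213.5 RPKM in vehicle libraries P13, P14, P15, P16 and P17. In 1,25 NP veins it ran from 106 RPKM (P42) through a median of 311 to 689 RPKM (P23). One library in each group, P13 and P23, stood near 700 RPKM in the plot, and 7 of 8 treated libraries were below the vehicle mean. The means were 393 ± 210.4 RPKM (SD, n = 5) and 314 ± 176 RPKM (SD, n = 8), which differed on the log2 scale by -0.37 (SE 0.43, limma, adjusted p = 0.799) with a 95% interval from 0.406-fold to 1.46-fold. With 1 library left out the difference ran from -0.57 (1,25 NP library P23) to -0.12 (vehicle library P13).

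MMP9 (ENSSSCG00000007436, chromosome 17, 48175056 to 48188264) was at 3.87, 2.39, 1.00, 1.98 and 0.0454 RPKM in vehicle libraries P13 to P17. Vehicle library P17 held 12 MMP9 reads and the other 12 libraries 64 or more. In 1,25 NP veins MMP9 ran from 0.302 RPKM (P28) through a median of 1.896 to 3.996 RPKM (P22). Treated libraries lay on either side of the vehicle mean, 4 above and 4 below. The means were 1.86 ± 1.45 and 2.23 ± 1.29 RPKM (SD, n = 5 and 8), which on the log2 scale differed by 0.34 (SE 0.49, limma, adjusted p = 0.823, interval 0.616-fold to 2.597-fold). Without vehicle library P17 the difference was -0.11, and it was 0.60 with a pseudocount of 0.1 and 0.94 with voom.

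MMP11, stromelysin-3, was low to moderate, and the MMP3 row, of uncertain identity, was low in most libraries. MMP11 (ENSSSCG00000010071, chromosome 14, 49907694 to 49917469), which furin activates inside the cell and which cleaves protease inhibitors of the serpin family rather than major collagens, was at 19.9, 9.09, 4.01, 8.10 and 18.2 RPKM in vehicle libraries P13 to P17. In 1,25 NP veins it ran from 1.26 RPKM (P31) through a median of 4.80 to 17.9 RPKM (P28). The 4 lowest treated libraries, P31, P42, P32 and P24, were below the lowest vehicle library, while P28 and P23 reached the upper vehicle range. MMP11 had the smallest p-value of the set: the means were 11.85 ± 6.85 and 6.93 ± 6.42 RPKM (SD, n = 5 and 8), which on the log2 scale differed by -1.04 (SE 0.60, limma, unadjusted p = 0.102, adjusted p = 0.795, interval 0.202-fold to 1.17-fold). With 1 library left out it stayed between -1.35 (vehicle library P15) and -0.81 (vehicle library P13). Its unadjusted limma p was under 0.05 without P23, P28 or vehicle library P15, with array weights and with sample quality weights, where 6.63%, 15.2%, 4.91%, 16.3% and 13.1% of all genes tested were, and its adjusted p was 0.285 or more in all 5.

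The MMP3 row was at 0.0514, 0.0765, 0.0243, 1.63 and 0.00465 RPKM in vehicle libraries P13 to P17 and ran in 1,25 NP veins from 0 (P28) through a median of 0.323 to 10.7 RPKM (P31). A single library carried the high end in each group: P16 with 296 reads among vehicle libraries and P31 with 2019 reads among treated ones. The mean ± SD was 0.356 ± 0.71 RPKM (n = 5) and 1.62 ± 3.699 RPKM (n = 8), which on the log2 scale differed by 0.59 (SE 0.64, limma, adjusted p = 0.796). The difference was 0.10 without 1,25 NP library P31 and 0.98 when vehicle library P16 was left out. It was 1.04 with a pseudocount of 0.1, 1.597 with voom and 0.20 with array weights.

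MMP14 (ENSSSCG00000002039, chromosome 7, 76174500 to 76185923) was at 288, 150.2, 108, 199 and 149 RPKM in vehicle libraries P13 to P17. In 1,25 NP veins it ran from 48.2 RPKM (P42) through a median of 149.7 to 235 RPKM (P28). P42 and P32 were the lowest of all 13 libraries, as they were for MMP2. The means were 179 ± 69.1 and 147 ± 68.6 RPKM (SD, n = 5 and 8), which on the log2 scale differed by -0.39 (SE 0.40, limma, adjusted p = 0.795, interval 0.425-fold to 1.38-fold).

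MMP19 (ENSSSCG00000000368, chromosome 5, 21280130 to 21285774) had the narrowest interval among the MMP members. It was at 25.8, 19.7, 16.4, 24.7 and 28.1 RPKM in vehicle libraries P13 to P17 and ran from 16.2 RPKM (P28) through a median of 24.9 to 59.6 RPKM (P23) in 1,25 NP veins. P23 was the only library above 29.03 RPKM. The log2 difference was 0.20 (SE 0.28, limma, adjusted p = 0.823), an interval from 0.755-fold to 1.74-fold, and 0.026 without P23.

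Among the inhibitors, TIMP1 (ENSSSCG00000012277, chromosome X, 42102172 to 42106297), a secreted protein that also binds the proenzyme of MMP9 and inhibits MMP14 poorly, was at 109, 57.7, 28.1, 343 and 213 RPKM in vehicle libraries P13 to P17. In 1,25 NP veins it ran from 76.9 RPKM (P42) through a median of 166 to 595.0 RPKM (P32). Treated libraries split into P24, P28, P31 and P32 at 231 RPKM or more and P21, P22, P23 and P42 at 101 RPKM or less, and P16 and P17 were the high vehicle libraries. The summed neutrophil markers were at 100.3 (P24), 130.5 (P32) and 612 RPKM (P31) in 3 of the 4 high treated libraries and at 3.87 RPKM in P28, at 0.856 to 16.4 RPKM in the 4 low ones, and at 285 RPKM in P16 and 0.952 RPKM in P17. The high sums came mostly from the markers S100A8 and S100A12. The marker CSF3R reached at most 9.05 RPKM in treated and 21.1 RPKM in vehicle veins. Which cells carried these transcripts, and their part in the TIMP1 level, were not tested. The means were 150.3 ± 129 and 227 ± 188 RPKM (SD, n = 5 and 8), which on the log2 scale differed by 0.69 (SE 0.64, limma, adjusted p = 0.795, interval 0.624-fold to 4.15-fold). It ranged from 0.21 (without vehicle library P15) to 1.11 (without vehicle library P16).

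TIMP3 (ENSSSCG00000031866, chromosome 5, 12185816 to 12242637), which also inhibits several ADAM and ADAMTS proteases, was at 62.7, 75.9, 236, 119.8 and 157.5 RPKM in vehicle libraries P13 to P17. In 1,25 NP veins it ran from 34.4 RPKM (P31) through a median of 71.4 to 162 RPKM (P22). Of the treated libraries 4 were below the lowest vehicle library and 2 above the vehicle mean. The means were 130.4 ± 70.0 and 85.8 ± 49.9 RPKM (SD, n = 5 and 8), which on the log2 scale differed by -0.66 (SE 0.44, limma, adjusted p = 0.795, interval 0.330-fold to 1.21-fold). It was -0.22 with array weights, -0.16 with sample quality weights and -0.41 without vehicle library P15. TIMP1 exceeded TIMP3 in 3 of 5 vehicle and 5 of 8 treated libraries, and their ratio ran from 0.119 (P15) to 2.865 (P16) in vehicle and from 0.539 (P21) to 7.28 (P24) in 1,25 NP veins.

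TIMP4 (ENSSSCG00000033000, chromosome 13, 68179805 to 68190942) had nearly equal means, 1.72 ± 0.865 and 1.70 ± 0.795 RPKM (SD, n = 5 and 8), with ranges of 1.09 to 3.06 and 0.589 to 2.97 RPKM. Its log2 difference was -0.018 (SE 0.30, limma, adjusted p = 0.985), an interval from 0.63-fold to 1.55-fold. The unnamed row at the TIMP2 locus was at 167, 105, 117, 98.6 and 96.6 RPKM in vehicle libraries P13 to P17 and at 47.8 (P42) to 142 RPKM (P28), median 88.0, in 1,25 NP veins. Of the 8 treated libraries 6 were below the lowest vehicle library. Its log2 difference was -0.45 (SE 0.27, limma, unadjusted p = 0.121, adjusted p = 0.795).

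**Figure D2:**
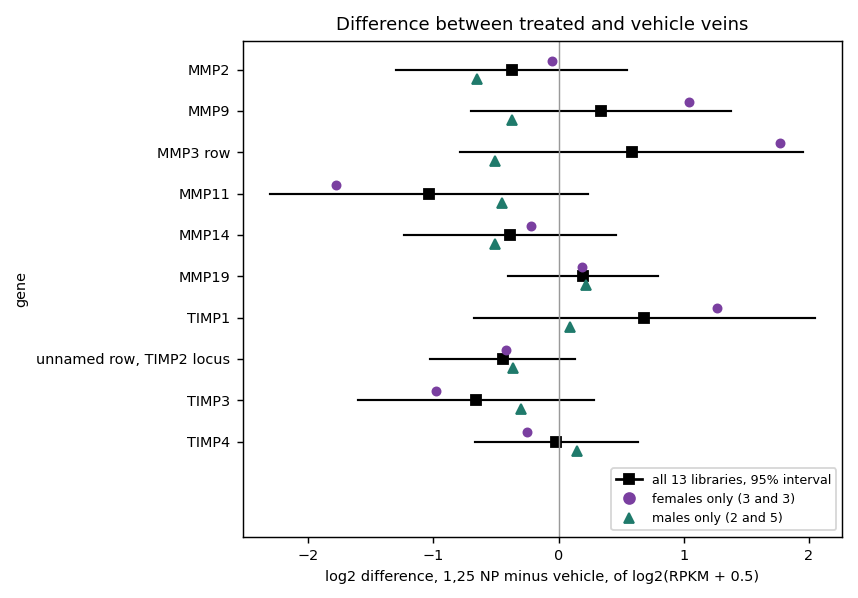
The horizontal axis is the log2 difference, 1,25 NP minus vehicle, of log2(RPKM + 0.5). Squares with lines are estimates over all 13 libraries with 95% intervals, circles are females only and triangles males only. Every interval includes 0, and circles and triangles lie on opposite sides of 0 for MMP9, the MMP3 row and TIMP4.

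The estimates were set apart by sex, since males made up 2 of 5 vehicle and 5 of 8 treated libraries. MMP11 had means of 14.0 RPKM in vehicle and 3.62 RPKM in 1,25 NP females, a log2 difference of -1.78 (SE 0.67), and of 8.59 and 8.91 RPKM in males, a log2 difference of -0.45 (SE 0.86). For MMP11 in females limma gave an unadjusted p = 0.0213 and an adjusted p = 0.452. It was the only member, 1 of 9, with an unadjusted p under 0.05 in females, where 10.5% of all genes tested had one. TIMP1 had a log2 difference of 1.26 (SE 0.73) in females and 0.089 (SE 0.95) in males, MMP9 1.04 (SE 0.67) and -0.37 (SE 0.59), and the MMP3 row 1.77 (SE 0.85) and -0.51 (SE 0.57). Single libraries stood apart among these females. The MMP3 row was at 10.7 RPKM in treated P31 against 0.507 in P24 and 0.0128 in P22. MMP9 was at 0.0454 RPKM in vehicle P17 against 3.87 in P13 and 1.00 in P15. The weight of P31 and P17 in the female estimates was not tested. Within males 0 of 9 members had an unadjusted p under 0.05, against 1.94% of all genes. None passed after adjustment in either sex, where the share of all genes called was 0% in each, and the difference between the sexes did not pass for any member: 0 of 9 after adjustment, where the share of all genes called was 0%, and 0 of 9 at an unadjusted p under 0.05, against 2.92% of all genes (limma interaction, adjusted p from 0.824 to 0.991).

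Transcripts of the gelatinases were set against that of TIMP1 as a ratio of RPKM within each library. Protein, enzyme activity and inhibition were not measured, so a ratio of 1 marks equal RPKM only. The MMP2 to TIMP1 ratio was 6.67, 5.73, 8.35, 1.34 and 1.00 in vehicle libraries P13 to P17 and ran from 0.222 (P32) through a median of 1.36 to 8.67 (P23) in 1,25 NP veins. TIMP1 exceeded MMP2 in 2 treated libraries, P24 and P32, and in 0 vehicle libraries. The mean log2 ratio of the 5 vehicle libraries was 1.75 ± 1.42 (SD) and that of the 8 treated libraries 0.68 ± 1.61 (SD). The difference of -1.07, with 7 of 8 treated libraries below the vehicle mean ratio, was within the spread (exact permutation, two-sided, p = 0.236; with adjustment over the 2 ratios, 0.472). Within sexes the difference was -1.32 in females (exact permutation p = 0.3, where 0.05 is the smallest p the splits allow) and -0.75 in males (exact permutation p = 0.714, where 0.0476 is the smallest).

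The MMP9 to TIMP1 ratio was far below 1 in every library, since MMP9 was low. It was 0.0355, 0.0414, 0.0356, 0.00575 and 0.000213 in vehicle libraries P13 to P17 and ran from 0.00117 (P28) through a median of 0.0126 to 0.0497 (P42) in 1,25 NP veins. Vehicle library P17, with the 12 MMP9 reads, was the lowest of all. The difference in mean log2 ratio was 0.20 (exact permutation, two-sided, p = 0.905, and the same after adjustment), and -1.16 without P17 (exact permutation p = 0.267). Summed over the members found, MMP RPKM exceeded TIMP RPKM in 5 of 5 vehicle libraries, at 1.10 to 6.16 times, and in 6 of 8 treated libraries, at 0.335 (P32) to 8.47 times (P23). TIMP2 is missing from that sum, and the unnamed row at its locus was not added. In vehicle library P17 the sums were 409 and 372 RPKM, and the unnamed row was at 96.6 RPKM. In vehicle library P15 the sums were 364 and 267 RPKM, with the unnamed row at 117 RPKM. In 1,25 NP library P24 they were 465 and 450 RPKM, with the unnamed row at 78.5 RPKM. With the unnamed row added, TIMP would exceed MMP in P17, P15 and P24. The counts of libraries with more MMP than TIMP therefore hold only without that row.

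**Figure D3:**
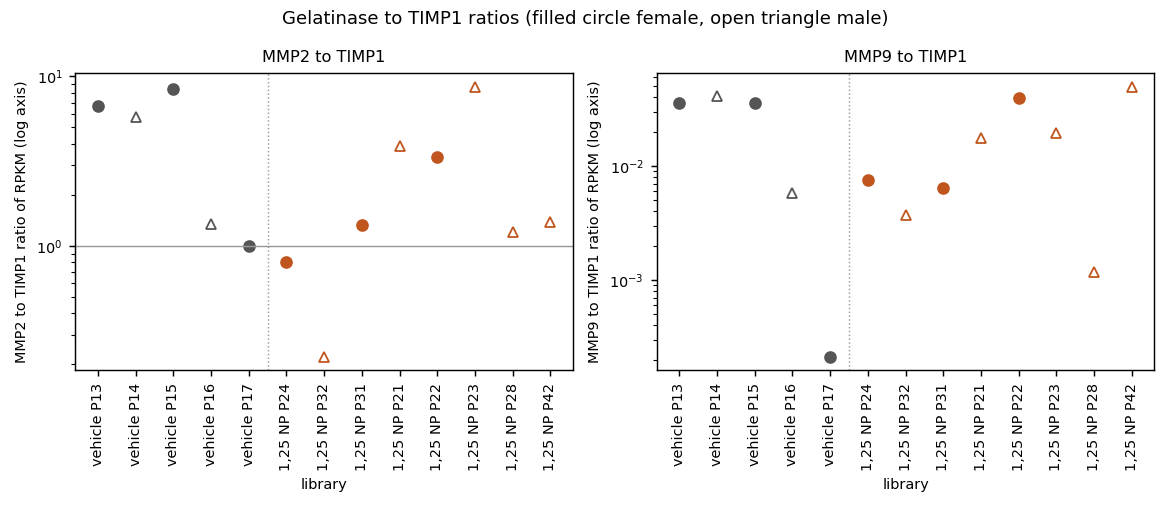
The vertical axes (log scale) give the MMP2 to TIMP1 and MMP9 to TIMP1 ratios of RPKM in each of 13 libraries, with filled circles for females and open triangles for males, and a dotted line between 5 vehicle and 8 1,25 NP libraries. In the MMP2 panel the horizontal line marks a ratio of 1, with P24 (0.803) and P32 (0.222) below it. In the MMP9 panel P17 (0.000213) stands lowest.

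MMP14, TIMP2 and the MMP2 proenzyme form a complex on the cell surface in which MMP14 activates MMP2, and TIMP1 binds the MMP9 proenzyme, so 5 pairs were compared across the 13 libraries on the log2(RPKM + 0.5) scale. MMP14 and MMP2 varied together: Pearson r was 0.894 (permutation p = 5e-05, adjusted p = 0.00025 over 5 pairs) and Spearman rho 0.830 (permutation p = 0.00094, adjusted p = 0.0047). Without P42 and P32, the libraries farthest from the MMP14 median, r was 0.728 (permutation p = 0.0109), and within the 8 treated libraries alone it was 0.887 (permutation p = 0.00557). The MMP2 to MMP14 ratio stayed between 1.33 and 3.21 in all 13 libraries.

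MMP14 and the unnamed row at the TIMP2 locus gave r = 0.855 (permutation p = 0.00022, adjusted p = 0.00055) and rho = 0.648 (permutation p = 0.0193, adjusted p = 0.0482). Without P42 and P32 r was 0.576 (permutation p = 0.0629). Those libraries had the lowest MMP14 levels, so leaving them out also narrows the range compared. How far the relation over the 13 libraries rested on them cannot be told from this. Within the 8 treated libraries alone, which include P42 and P32, r was 0.922 and rho 0.881 (permutation p = 0.0009 for r). The unnamed row and MMP2 gave r = 0.707 (permutation p = 0.00751, adjusted p = 0.0125) and rho = 0.511 (permutation p = 0.0771, adjusted p = 0.128), and r was 0.340 without P42 and P13 (permutation p = 0.296). For TIMP1 no correlation was detected with MMP9 (r = -0.102, permutation p = 0.740, rho = -0.0165, permutation p = 0.963, r without P32 and P15 -0.346). None was detected with MMP2 either (r = -0.117, permutation p = 0.702, rho = -0.00549, permutation p = 0.993, r without P32 and P15 0.0247). The adjusted permutation p-values were 0.740 for both r and 0.993 for both rho. With 13 libraries a moderate correlation could go undetected.

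**Figure D4:**
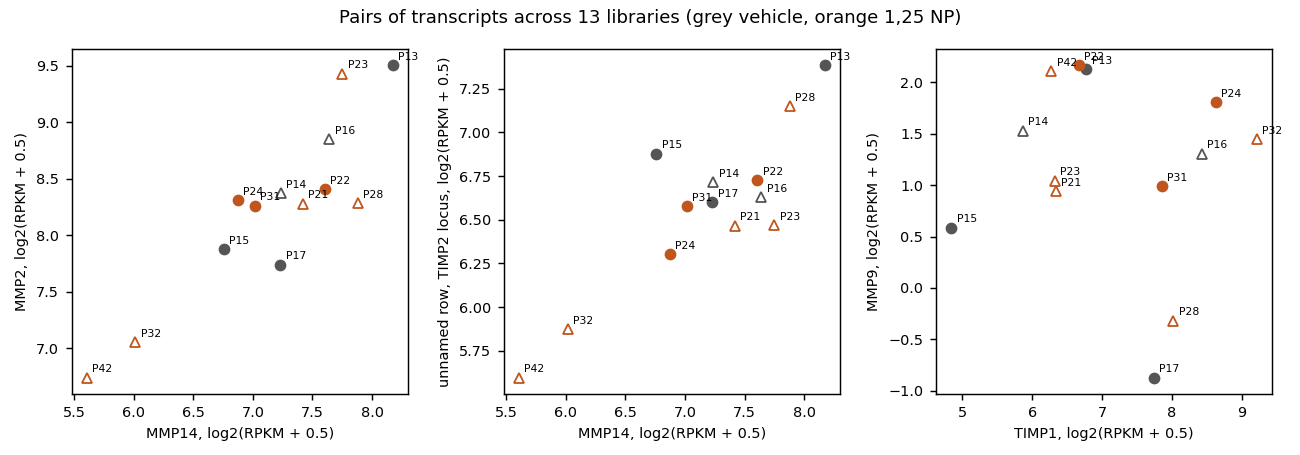
Each point is 1 library, labelled by animal code, in grey for vehicle and orange for 1,25 NP, with circles for females and triangles for males. Axes are log2(RPKM + 0.5). MMP2 follows MMP14 (r = 0.894), P42 and P32 lie at the low end of the first 2 panels, and TIMP1 and MMP9 show no clear trend (r = -0.102).

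The genes whose levels were most like a member over the 13 libraries were listed by Pearson r among all tested genes with a symbol, as a description of these libraries. MMP14 ranked 4 for MMP2, after the acid phosphatase ACP5 (r = 0.915), WDR86 (0.907) and the acyltransferase HHAT (0.894), and before CFAP100 (0.876). For TIMP1 the list was led by SOCS3, a feedback inhibitor of cytokine signalling (0.913), and held the metal transporter SLC11A1 (0.881), GSTO1 (0.848), the transcription factor CEBPB (0.843) and the aggrecan-cleaving protease ADAMTS4 (0.833). No other member came near TIMP1, the closest being the MMP3 row (0.244). For MMP9 the values were lower: TM4SF19 (0.761), KLHL32 (0.754), ATP6V0D2, a proton pump subunit of osteoclasts (0.749), EPHA4 (0.746) and STOX2 (0.745).

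Of 17 other MMP genes sought, 13 were in the table and 7 passed the filter. Of these, 2 had higher and 5 lower mean levels in 1,25 NP veins (median log2 difference -0.44). None was called, where the share of all genes called was 0%. Membrane-type MMP16 had 14.8 ± 10.1 and 18.2 ± 9.09 RPKM (SD, n = 5 and 8) and MMP28, epilysin, 14.6 ± 7.89 and 12.2 ± 9.78 RPKM. The smallest p-values belonged to the leukocyte membrane-type MMP25 (0.959 ± 0.962 and 0.352 ± 0.176 RPKM, limma, adjusted p = 0.795), MMP27 (6.31 ± 5.14 and 3.41 ± 3.25 RPKM) and MMP23B (3.45 ± 2.20 and 2.89 ± 3.55 RPKM). The macrophage elastase MMP12 spanned 0.0907 to 7.35 RPKM in vehicle veins and 0.0504 to 17.4 RPKM (P42) in treated ones, and MMP15 had 2.05 ± 1.37 and 1.70 ± 1.47 RPKM.

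MMP13, a collagenase on chromosome 9 like the MMP3 row, did not pass the filter, and its levels were concentrated in few libraries. It was at 83.9 RPKM (12757 reads) in 1,25 NP library P31, at 1.65 RPKM or less in the other 7 treated libraries, at 2.40 RPKM (354 reads) in vehicle library P16 and at 0.161 RPKM or less in the other 4. P31 and P16 are the same libraries that were highest in their groups for the MMP3 row. They also had the highest summed level of the neutrophil markers, 612 RPKM in P31 against 0.856 to 130.5 in the other treated libraries, and 285 RPKM in P16 against 0.952 to 6.32 in the other vehicle libraries. In P31 that sum came mostly from S100A8 (225 RPKM) and S100A12 (382 RPKM). CSF3R, another of these markers, was highest among treated libraries in P24 (9.05 RPKM). In P16 S100A8 (116 RPKM), S100A12 (148 RPKM) and CSF3R (21.1 RPKM) were each highest among vehicle libraries. Which cells carried these transcripts, and their part in the MMP levels, were not tested. MMP8, the collagenase that neutrophils store, stayed at 0.316 RPKM or less in all 13 libraries, and MMP7, MMP17, MMP20 and MMP24 also lay below the filter.

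**Figure D5:**
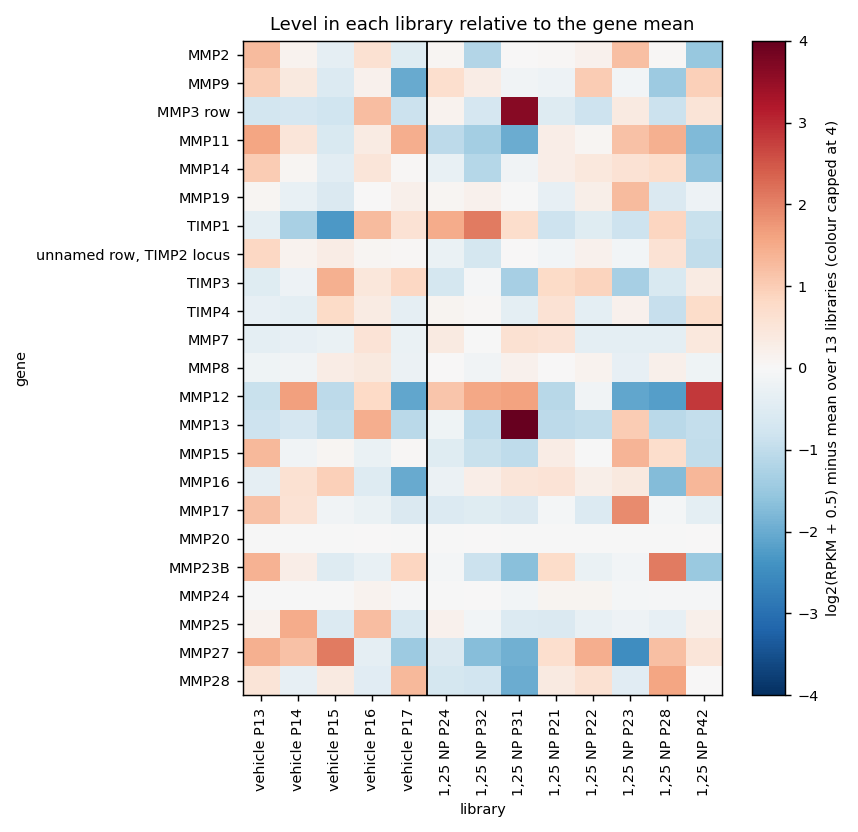
Colours give log2(RPKM + 0.5) minus the gene's mean over 13 libraries (scale capped at 4), with genes in rows, the 9 members and the unnamed row above the horizontal line and the other MMP genes below it, and 5 vehicle and 8 1,25 NP libraries in columns. The MMP3 row and MMP13 are deep red in P31, and MMP2 and MMP14 are pale or blue in P32 and P42.

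The genes around MMP activity showed no called change either. Of MMP activators, receptors and other inhibitors, 17 of 20 were tested, with 10 higher and 7 lower in 1,25 NP veins. Their median log2 difference was 0.10 and 0 were called, where the share of all genes called was 0%. At an unadjusted limma p under 0.05 there was 1 of 17, against 4.01% of all genes tested. That was A2M, alpha-2-macroglobulin, a plasma inhibitor that traps many proteases, at 33.1 ± 18.5 and 11.8 ± 10.4 RPKM (SD, n = 5 and 8), which on the log2 scale differed by -1.66 (SE 0.55, limma, unadjusted p = 0.00815, adjusted p = 0.795). The tight junction protein CLDN1 had 3.44 ± 5.17 and 0.580 ± 0.495 RPKM and the integrin subunit ITGAV 33.3 ± 12.9 and 48.7 ± 14.2 RPKM. 

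Of the inducers and transcription factors of MMP genes, 17 of 20 were tested, with 6 higher and 11 lower, a median of -0.16 and 0 called. At an unadjusted limma p under 0.05 there was 1 of 17, against 4.01% of all genes tested. Oncostatin M (OSM), a cytokine of the interleukin-6 family that induces TIMP1, had 11.8 ± 5.35 and 5.99 ± 3.80 RPKM (log2 difference -1.08, SE 0.46, limma, unadjusted p = 0.0327, adjusted p = 0.795), the NF-kappaB subunit RELA 20.7 ± 7.07 and 13.997 ± 4.98 RPKM, and FOSB 5.72 ± 7.31 and 1.91 ± 1.28 RPKM. Of the matrix substrates, 22 of 24 were tested, with 9 higher and 13 lower, a median of -0.13 and 0 called. Over all genes tested the share called was 0%. The proteoglycan VCAN had 61.6 ± 16.8 and 110.1 ± 49.1 RPKM, LUM 214 ± 126 and 352 ± 174 RPKM, and elastin (ELN) 1012 ± 919 and 871 ± 1355 RPKM. The medians of all 3 lists were near 0 and changed sign when single libraries were left out, to -0.069 without P24 for the activators, 0.016 without vehicle library P17 for the inducers and 0.0091 without vehicle library P13 for the substrates.

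Of the cell type markers tested, 0 were called in any list, where the share of all genes called was 0%. Their summed levels varied between libraries of the same group. Macrophage markers had 3 of 11 higher (median log2 difference -0.29, summed 343 to 1696 RPKM in vehicle and 392 to 1005 in 1,25 NP), fibroblast markers 5 of 10 (-0.13, 1441 to 4370 and 1039 to 3283), and giant cell and osteoclast markers 2 of 5 tested (-0.067, 11.8 to 32.8 and 13.8 to 28.1). The macrophage median was 0.082 without vehicle library P16 and 0.094 with array weights, and the fibroblast and giant cell medians also changed sign when single libraries were left out. Neutrophil markers had 3 of 3 tested higher (1.39, from 0.59 without P31 to 2.81 without vehicle library P16), of which CSF3R was at 0.019 with a mean of 5.29 RPKM in vehicle and 3.32 RPKM in 1,25 NP veins. Lymphocyte markers had 1 of 7 higher (-0.099, 37.5 to 99.0 and 33.2 to 68.5), smooth muscle markers 0 of 10 (-0.44, 449.8 to 6218 and 353 to 4544) and endothelial markers 3 of 10 (-0.19, 187 to 252 and 119.9 to 252). Leaving out vehicle library P17 turned the smooth muscle median to 0.072, leaving out P16 to -0.85, and the lymphocyte median changed sign when single libraries were left out. Erythrocyte markers had 0 of 3 tested higher (-2.17, 18.6 to 4402 and 5.81 to 69.0, and -0.97 without vehicle library P17). All 3 of them had an unadjusted p under 0.05, against 4.01% of all genes tested. In limma HBB had an unadjusted p = 0.0291, ALAS2 0.0218 and GYPC 0.0432, with an adjusted p = 0.795 for each. Adipocyte markers had 1 of 4 tested higher (-0.66, 8.53 to 125 and 5.10 to 569). No marker of these lists was at 0 in every library of a group. The highest vehicle sum for smooth muscle and erythrocytes was in P17, the library with the least MMP9, and the highest treated adipocyte sum in P42, the library with the least MMP2 and MMP14. What these cells contribute to the levels of the members was not tested.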

How the data were processed

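RNA-seq libraries were made from total RNA of pig outflow vein with a TruSeq V2 kit, per the labels' protocols. The authors deposited 1 table with 30477 gene rows and 1 column of RPKM for each library. No unit is named in the header. RPKM was inferred because each deposited value, multiplied by length + 1 and scaled, gave whole reads (within 0.001 reads) for 100% of values above 0, and these reads summed to the scaling total of each library. The authors' gene lengths, another deposited column in bases, served only for that step. The submitters' processing notes name mm10, a mouse build, which the pig gene identifiers contradict. For the aligner, counter, strand setting and pig build the sources used here give nothing. Coordinates were copied from the table. Of 13694 protein-coding genes with a symbol shared with a RefSeq table (Sscrofa11.1), 99.91% overlapped the same gene there.

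limma (version 3.58.1, R 4.3.3) with a mean-variance trend was fitted to log2(RPKM + 0.5) of the 14579 genes that exceeded 0.5 RPKM in 5 or more libraries. p-values were adjusted over all of them (Benjamini-Hochberg, threshold 0.05). The limma fit was also run on counts simulated with the same dispersion for every gene. That checks the code and does not measure power at the spread between these animals. Group differences in ratio were tested by exact permutation (two-sided, 1287 splits), and correlations by 100000 random permutations. Genes outside the members are those with the 3 smallest p-values of each pathway list, the 5 most like MMP2, MMP9 and TIMP1 in Pearson r, and, added after their values were seen, the rest of the MMP family. Cell marker lists are given mainly by counts and summed levels, with a few genes of that rule named. Members and lists were chosen with earlier results of these data known. Alternatives were other pseudocounts, filters, scaling, weights, voom on the recovered reads, sex as covariate and the omission of each library in turn. matplotlib 3.10.9 drew the figures.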

Additional observations from a re-analysis of the deposited data

Results flagged for a closer look

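In 21 of 102 groups of libraries checked, 1 library lay far from the rest of its group by Dixon's criterion. The groups were those of members, ratios and the other genes named, genes named only as cell markers aside. Chance gives about 1 in 20 only for independent, normally distributed values. The check used values on the linear scale, and groups shared libraries and genes, so the count cannot be set against that rate.

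1,25 NP library P23 was at 689 RPKM for MMP2 (other treated libraries 106 to 339), 59.6 RPKM for MMP19 (16.2 to 29.03), 2.93 RPKM for MMP17 (0.121 to 0.381), 8.67 for the MMP2 to TIMP1 ratio (0.222 to 3.86) and 8.47 for summed MMP over summed TIMP (0.335 to 2.199). Vehicle library P16 was at 1.63 RPKM for the MMP3 row (other vehicle libraries 0.00465 to 0.0765), 2.40 for MMP13 (0 to 0.161), 0.452 for MMP7 (0 to 0.0501), 0.0922 for MMP24 (0.0184 to 0.0302) and 0.00689 for MMP20 (0 in the others). In P16 these rested on 24 reads for MMP7, 17 for MMP24 and 1 for MMP20, all genes below the filter. 1,25 NP library P31 was at 10.7 RPKM for the MMP3 row (0 to 0.806) and 83.9 for MMP13 (0 to 1.65).

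1,25 NP library P28 was at 11.2 RPKM for MMP23B (0.359 to 4.08), 33.6 for MMP28 (2.34 to 16.9), 3914 for ELN (12.3 to 1484) and 1.32 for EPHA4 (3.39 to 4.76). 1,25 NP library P42 was at 17.4 RPKM for MMP12 (0.0504 to 7.22) and 1.71 for CLDN1 (0.116 to 0.760). Vehicle library P13 was at 4.47 RPKM for MMP15 (1.19 to 1.64) and 18.5 for FOSB (0.748 to 4.00), and vehicle library P15 at 12.4 for CLDN1 (0.404 to 3.37).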

How the results depend on the processing

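MMP2, MMP11, MMP14, MMP19, TIMP1, TIMP3 and the MMP2 to TIMP1 ratio kept their direction under every alternative run, although TIMP3 shrank from -0.66 to -0.22 with array weights and -0.16 with sample quality weights. Under the alternatives run 0 members were called. The MMP2 to TIMP1 difference ran from -1.503 to -0.66 with 1 library left out. The MMP9 to TIMP1 difference changed sign with 0.5 RPKM added to both genes (-0.35), as a linear ratio (-0.00552), within males (-0.71) and, of the libraries left out, without vehicle library P17, 1,25 NP library P22 or P42 (range -1.16 to 0.74). The MMP9 difference was -0.37 within males and ran from -0.11 to 0.64 with 1 library left out, and the MMP3 row was at -0.51 within males. TIMP4 ran from -0.12 to 0.17 with 1 library left out and was 0.027 with median-of-ratios scaling, 0.22 with array weights, 0.26 with sample quality weights and 0.15 within males. The cause was not tested. Over all genes 0 were called, and from 0 to 1 with 1 library left out (1 without vehicle library P17). Within the 8 treated libraries the correlation of the unnamed row at the TIMP2 locus with MMP2 was 0.701 (permutation p = 0.0558). No paired analysis was possible because the columns carry no replicate number. A filter of 1 RPKM left no value for the MMP3 row. The rows of the MMP3 and MMP9 genes rest on few reads in some libraries, and intervals reflect the spread between animals. The header codes are read as separate animals.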
